A study of Arabidopsis thaliana with 4 samples.

Results

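Dark and sugar starvation genes are the genes that leaves switch on when light and carbohydrate run short, and 10 of them were followed through the 4 leaf libraries of this *Arabidopsis thaliana* series. They were given as a list of loci, drawn up with earlier results of these data known, so that their counts are a description: *ASN1/DIN6*, *DIN2*, *DIN4*, *DIN10*, *BCAT2*, *IVD*, *MCCA*, *bZIP1*, *DRM1* and *DRM2*. All 10 had a row among the 27655 genes of the deposited table, and 9 reached 1 FPKM (fragments scaled to the length of the transcript and to the mapped fragments of the library) in at least 1 library, as did 16374 genes in all.

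The libraries came from leaves of 3-week-old plants grown on soil in long days. OX5-4, an overexpressor of *AtBBD1* that the labels name p35S:AtBBD1, the knock-out *atbbd1*, and wild type (WT) Columbia were each watered with 20% polyethylene glycol (PEG), which lowers the water potential at the root, and sampled after 6 h. The 4th library was WT at 0 h, before PEG. *AtBBD1* encodes a bifunctional nuclease. OX5-4 is a single transgenic line, whose 35S promoter the study attributes to cassava vein mosaic virus, *atbbd1* is a T-DNA insertion line, and each sample pooled leaves of several plants. Each condition had 1 library, so there was no replicate error and no test. Differences were given as ratios of FPKM, called at 2-fold, with 95% counting intervals that cover the sampling of reads alone, and neither plants nor library preparation. No untreated 6 h library is among the samples, so the effect of PEG and that of sampling time cannot be told apart. In leaf samples, fewer cells of a type and less RNA per cell cannot be told apart either.

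When a leaf runs out of sugar, the kinase SnRK1 is released from inhibition by sugar phosphates and acts, in part through bZIP transcription factors of the C and S1 groups, on genes that save or recover carbon. Amino acids then become fuel: branched-chain amino acids are transaminated and oxidized in mitochondria, and their nitrogen is stored in asparagine, which carries more nitrogen per carbon than glutamine. Many of these genes were found as dark inducible (DIN) transcripts in leaves kept in darkness, and are repressed again by sucrose.

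The target and marker genes set the frame for the libraries. *AtBBD1* was at 631 FPKM in OX5-4, 36.6 FPKM in *atbbd1*, 541 FPKM in WT after PEG and 95.5 FPKM in WT at 0 h, so that OX5-4 stood only 1.17-fold above WT after PEG while *atbbd1* stood 14.8-fold below it. The libraries held an estimated 15358000 to 17692000 mapped fragments, and 15047 to 15426 genes reached 1 FPKM in each. All 4 mesophyll markers were present, with a summed level of 14195 FPKM in OX5-4, 19090 FPKM in *atbbd1*, 14935 FPKM in WT after PEG and 28070 FPKM in WT at 0 h. *RBCS1A* made up most of each sum, with 13096 FPKM in *atbbd1* and 9347 FPKM in WT after PEG. Of the 4, 3 were higher in *atbbd1* than in WT after PEG. *LHCB2.1* was lower, at 2345 FPKM in *atbbd1* and 2614 FPKM in WT after PEG. No root marker reached 1 FPKM, and *CASP1* and *PHT1;1* were listed at 0. The flower markers summed to between 1.34 and 2.32 FPKM, and 3 of 4 guard cell markers and 1 of 3 trichome markers reached 1 FPKM in each library. The phloem and vascular markers differed between genotypes: all 5 were higher in *atbbd1* than in WT after PEG, where 5746 of 16289 genes were higher. Their sums were 75.4 FPKM in OX5-4, 116 FPKM in *atbbd1*, 67.4 FPKM in WT after PEG and 120 FPKM in WT at 0 h. The part of these shifts in the ratios below was not tested.

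In WT leaves the starvation genes stood above their 0 h level once PEG had acted for 6 h. All 9 measured genes did so, each with a counting interval beyond 1, and 8 of the 9 were at least 2-fold higher, where 16.1% of the 16374 genes were at least 2-fold higher and 15.9% at least 2-fold lower. None of the 9 was lower. At 0.40, 0.37 and 0.35 FPKM in WT at 0 h, *ASN1*, *BCAT2* and *DRM2* passed the filter of 1 FPKM through PEG libraries alone. Their part in the counts and the median is thus not independent of the filter. With a filter of 0 FPKM the count was still 8 of 9. The counting interval lay above 1 for 37.5% of genes and below 1 for 34.6%. The median log2 ratio of the 9 genes was 2.21, with a range of 0.58 to 10.45, beside 0.04 over all genes. The members' summed FPKM was 730 in WT after PEG and 42.5 in WT at 0 h, and *DRM2* alone made up most of the first sum.

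**Figure D1:**
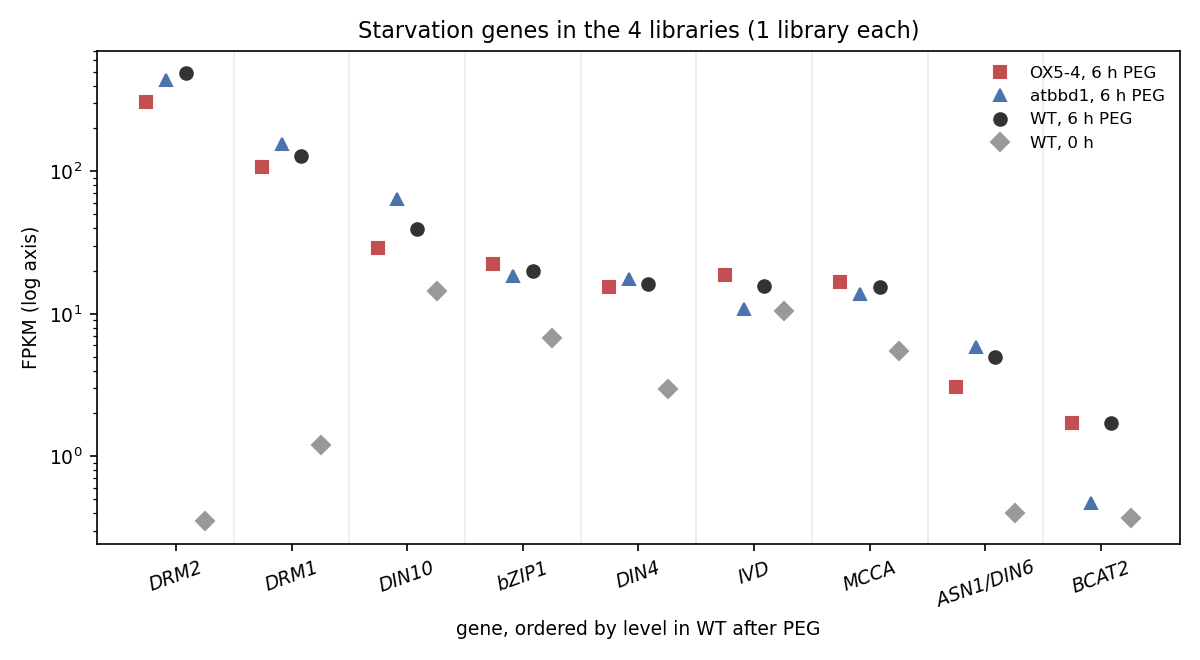
FPKM (log axis) of the 9 measured starvation genes in OX5-4, *atbbd1* and WT after 6 h of PEG and in WT at 0 h, 1 point per library, with genes ordered by their level in WT after PEG. The WT 0 h point is the lowest for every gene, from 0.35 FPKM for *DRM2* to 14.4 FPKM for *DIN10*, and the PEG libraries lie within 2.21-fold of each other except at *BCAT2*, where *atbbd1* sits at 0.47 FPKM next to WT at 0 h.

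The largest ratios belonged to the 2 dormancy-associated genes, which encode small proteins known from dormant buds of pea and repressed by auxin. *DRM2* was at 307 FPKM in OX5-4, 437 FPKM in *atbbd1*, 489 FPKM in WT after PEG and 0.35 FPKM in WT at 0 h. The 0 h value stood for only 3 to 5 reads, so the WT ratio of 1396 has a counting interval of 505 to 7159. It ranked 2nd of 16278 genes with a value in both WT libraries. *DRM1* was at 108 FPKM in OX5-4, 155 FPKM in *atbbd1*, 128 FPKM in WT after PEG and 1.21 FPKM in WT at 0 h, a WT ratio of 106 (53.1 to 244), which ranked 34th. Both genes were therefore low in WT at 0 h. After PEG they were the 2 highest of the 10 members in every genotype. Their relative *DRMH1* (AT1G56220) was the 1 other listed gene of the family at 1 FPKM or more. It was at 407 FPKM in OX5-4, 341 FPKM in *atbbd1*, 400 FPKM in WT after PEG and 74.3 FPKM in WT at 0 h. In WT it was 5.38-fold higher after PEG (5.01 to 5.79).

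The promoters of *DRM1* and *DRM2* are shown because these genes had the widest WT ratios, and that of *ASN1* because the S1 bZIPs act on this gene. Each is the 250 bases before the annotated gene start, 5′ to 3′ on the strand of the gene, from the RefSeq sequence of TAIR10.1: *DRM1* at chr1:9935441-9935690, *DRM2* at chr2:14310609-14310858 and *ASN1* at chr3:17441432-17441681, all on the minus strand. Capitals mark matches to the motifs described after them.
DRM1: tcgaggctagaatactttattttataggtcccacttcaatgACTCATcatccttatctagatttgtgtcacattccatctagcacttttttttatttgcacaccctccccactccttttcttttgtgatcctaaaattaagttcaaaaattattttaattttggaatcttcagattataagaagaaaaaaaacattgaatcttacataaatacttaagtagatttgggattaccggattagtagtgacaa
DRM2: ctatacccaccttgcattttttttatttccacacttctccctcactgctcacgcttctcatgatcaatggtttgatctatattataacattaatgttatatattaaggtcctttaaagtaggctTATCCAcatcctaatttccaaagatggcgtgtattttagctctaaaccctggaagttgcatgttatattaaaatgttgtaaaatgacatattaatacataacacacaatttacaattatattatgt
ASN1: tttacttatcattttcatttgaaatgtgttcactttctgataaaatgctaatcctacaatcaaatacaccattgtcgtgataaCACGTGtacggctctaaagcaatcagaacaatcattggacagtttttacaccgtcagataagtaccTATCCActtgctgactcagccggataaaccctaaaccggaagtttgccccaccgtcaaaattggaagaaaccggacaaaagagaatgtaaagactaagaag

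Motifs were searched on both strands from 250 bases before to 50 bases after the gene start. ACTCAT, the element of the *PRODH* promoter bound by S1 bZIPs, was found in 2 of 10 members, *IVD* (starting 4 bases before the gene start) and *DRM1* (209 bases before), and in 14.7% of 27443 promoters. The G-box CACGTG was found in *ASN1* alone, once 167 bases before the start and once 36 bases after it, and in 7.68% of promoters. TATCCA, an element of sugar-repressed α-amylase promoters in rice, was found in 5 of 10, including *ASN1* (101 bases before) and *DRM2* (126 bases before), beside 16.1% of promoters. The ABA-response core ACGTGNC was found in *DIN4*, *BCAT2* and *MCCA* and in 10.3% of promoters, and it overlapped no CACGTG in these genes. The evening element AAAATATCT was found in no member and in 2.82% of promoters. A match says only that these letters stand in the window.

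*ASN1/DIN6* (AT3G47340) encodes the glutamine-dependent asparagine synthetase of starved leaves. It was at 3.09 FPKM in OX5-4, 5.81 FPKM in *atbbd1*, 4.98 FPKM in WT after PEG and 0.40 FPKM in WT at 0 h, and its WT ratio was 12.5 (6.74 to 24.0). The other asparagine synthetases were not at this ratio: *ASN2*, expressed in the light, was at 30.3 FPKM in WT after PEG and 17.96 FPKM in WT at 0 h, and *ASN3* was at 2.15 FPKM in WT after PEG and 6.50 FPKM in WT at 0 h. After PEG *ASN1* was the lowest of the measured members but for *BCAT2*, and on the FPKM scale it stayed below *ASN2* in every library. Of 10 measured genes of asparagine and glutamine metabolism other than *ASN1*, 3 were at least 2-fold higher and 3 at least 2-fold lower in WT after PEG. *GLN1;1*, a cytosolic glutamine synthetase, was at 109 FPKM in WT after PEG and 28.7 FPKM in WT at 0 h, while its relative *GLN1;2* was at 119 FPKM in WT after PEG and 535 FPKM in WT at 0 h. Between genotypes, the glutamine synthetase *GLN1;3* alone in this list passed 2-fold, with OX5-4 at 13.5 FPKM against 6.29 FPKM for *atbbd1*. *GLN1;4* was lowest in OX5-4, at 2.85 FPKM in OX5-4, 5.17 FPKM in *atbbd1* and 4.45 FPKM in WT after PEG.

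*bZIP1* (AT5G49450), an S1 transcription factor that acts downstream of SnRK1, was at 22.4 FPKM in OX5-4, 18.5 FPKM in *atbbd1*, 20.1 FPKM in WT after PEG and 6.76 FPKM in WT at 0 h. Its WT ratio was 2.97 (2.34 to 3.79). Among 7 other measured bZIPs of the C and S1 groups, *bZIP11* was the only one at least 2-fold higher (4.32 FPKM in WT after PEG and 1.43 FPKM in WT at 0 h) and *bZIP2* the only one at least 2-fold lower (47.8 FPKM in WT after PEG and 133 FPKM in WT at 0 h). Among the 7 SnRK1 subunits, *KING1* alone passed 2-fold, at 58.7 FPKM in WT after PEG and 11.2 FPKM in WT at 0 h. The catalytic subunit *KIN10* was at 18.8 FPKM in WT after PEG and 11.2 FPKM in WT at 0 h.

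The genes of branched-chain amino acid breakdown follow the path of leucine. *BCAT2* (AT1G10070), an aminotransferase that removes the amino group, was at 1.71 FPKM in OX5-4, 0.47 FPKM in *atbbd1*, 1.71 FPKM in WT after PEG and 0.37 FPKM in WT at 0 h. These levels stood for about 47, 12, 42 and 9 reads in the same order, and the WT ratio was 4.62 (2.19 to 10.6). *DIN4* (AT3G13450), the E1 beta subunit of the branched-chain keto acid dehydrogenase (BCKDH) that oxidizes the resulting keto acid, was at 15.3 FPKM in OX5-4, 17.5 FPKM in *atbbd1*, 16.3 FPKM in WT after PEG and 2.97 FPKM in WT at 0 h, a WT ratio of 5.49 (4.18 to 7.32). Both intervals lay above 2-fold, although with a pseudocount of 1 the log2 ratio of *BCAT2* was 0.98, just under 2-fold.

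*IVD* (AT3G45300), isovaleryl-CoA dehydrogenase, was at 18.6 FPKM in OX5-4, 10.8 FPKM in *atbbd1*, 15.8 FPKM in WT after PEG and 10.6 FPKM in WT at 0 h. It was the 1 measured member under 2-fold in WT, at 1.50 (1.28 to 1.76). *MCCA* (AT1G03090), the biotin-bearing subunit of methylcrotonyl-CoA carboxylase, was at 16.6 FPKM in OX5-4, 13.7 FPKM in *atbbd1*, 15.5 FPKM in WT after PEG and 5.50 FPKM in WT at 0 h, a WT ratio of 2.81 (2.41 to 3.30). Of 16 other genes of the pathway and its electron transfer, 6 were at least 2-fold higher and 1 lower in WT after PEG, and 14 lay above 0 h, with a median log2 ratio of 0.87. The largest of them was *ALDH6B2*, which acts on valine, at 23.9 FPKM in WT after PEG and 4.53 FPKM in WT at 0 h. The one that was lower was *HML1*, the lyase of the last leucine step, at 10.9 FPKM in WT after PEG and 31.9 FPKM in WT at 0 h. Among the 6, *BCAT1* and *BCKDH-E1A2* were at 0.87 and 0.44 FPKM in WT at 0 h. They passed the filter of 1 FPKM through PEG libraries alone.

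The remaining 2 members are DIN genes of carbohydrate turnover. *DIN10* (AT5G20250), of the raffinose synthase and alkaline α-galactosidase family, was at 29.0 FPKM in OX5-4, 64.0 FPKM in *atbbd1*, 39.2 FPKM in WT after PEG and 14.4 FPKM in WT at 0 h, and its WT ratio was 2.73 (2.49 to 3.00). *DIN2* (AT3G60140), the β-glucosidase BGLU30, was listed at 0 in all 4 libraries. At a floor of 3 reads its level could have been up to 0.0823 FPKM in OX5-4, 0.0856 FPKM in *atbbd1*, 0.0925 FPKM in WT after PEG and 0.0948 FPKM in WT at 0 h. The genes every cell uses were far from 0, with a lowest value of 11.9 FPKM among 8 reference genes, and the neighbours of *DIN2* in its family, *BGLU28*, *BGLU29*, *BGLU31* and *BGLU32*, were at 0.08 FPKM or less.

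Starvation markers outside the 10 members gave similar counts in WT. Of 10 measured, 9 were at least 2-fold higher after PEG and 1 was lower, with a median log2 ratio of 2.12. Among the 9, *ATL8* reached 1 FPKM in OX5-4 alone. It was at 0.84 FPKM in WT after PEG and 0.33 FPKM in WT at 0 h, about 13 and 5 reads. AT3G15450, an aluminium-induced-like gene used as a sugar starvation marker, was at 441 FPKM in WT after PEG and 16.0 FPKM in WT at 0 h, followed by *RZPF34*, a RING and zinc finger gene, at 35.6 FPKM in WT after PEG and 4.33 FPKM in WT at 0 h, and *SEN1/DIN1*, a senescence-associated gene, at 84.0 FPKM in WT after PEG and 11.8 FPKM in WT at 0 h. The smallest of the 9 was *GDH1*, a glutamate dehydrogenase, at 27.3 FPKM in WT after PEG and 13.1 FPKM in WT at 0 h. The exception was *DIN9*, a mannose-6-phosphate isomerase, at 0.57 FPKM in WT after PEG and 3.91 FPKM in WT at 0 h. *DIN9* passed the filter of 1 FPKM through WT at 0 h alone, so its place as the exception is not independent of the filter. Genes that sugar or nitrate induce did not move the opposite way as a list: 3 of 6 were at least 2-fold higher and 1 lower. The lower one was the nitrate reductase *NIA2*, at 28.6 FPKM in WT after PEG and 144 FPKM in WT at 0 h. *GPT2*, counted as higher, reached 1 FPKM in OX5-4 alone. It was at 0.55 FPKM in WT after PEG and 0.18 FPKM in WT at 0 h, about 15 and 5 reads. *APL4*, also counted as higher, was at 2.41 FPKM in WT after PEG and 0.83 FPKM in WT at 0 h. It passed the filter of 1 FPKM through PEG libraries alone. Of the 8 reference genes, 2 were at least 2-fold lower.

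**Figure D2:**
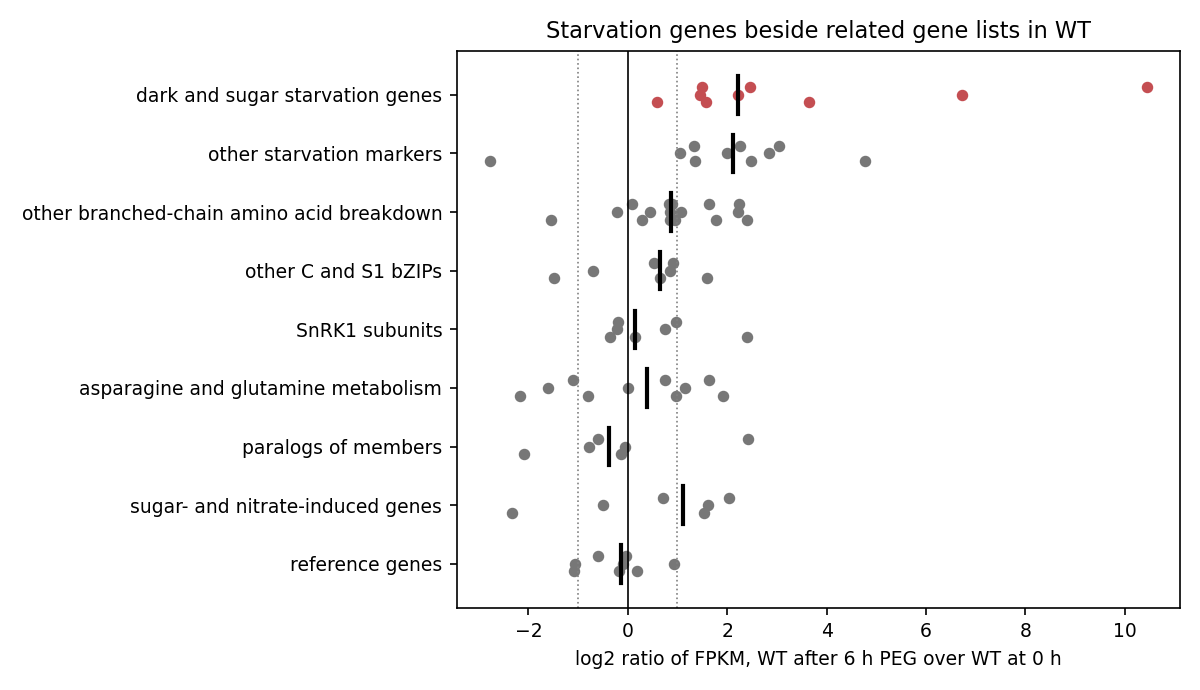
Log2 ratio of FPKM in WT after 6 h of PEG over WT at 0 h, 1 point per gene at 1 FPKM or more in at least 1 library, for the starvation genes (red) and 8 other gene lists (grey), with black bars at the median of each list and dotted lines at 2-fold. The starvation genes all lie right of 0 with a median of 2.21, the other starvation markers lie there but for *DIN9*, and the reference genes have a median of -0.14.

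Between genotypes after PEG few of the starvation genes passed 2-fold. *IVD* was 1.73-fold higher in OX5-4 than in *atbbd1* (1.498 to 1.998). In WT, *IVD* was 1.50-fold higher after PEG than at 0 h (1.28 to 1.76). These counting intervals overlap, so which of the ratios is larger cannot be told. The WT library after PEG is the control of both genotype comparisons, so their ratios are not independent. No member was at least 2-fold higher or lower in OX5-4 than in WT, where 2.45% of genes were higher and 1.31% lower. In *atbbd1* 1 of 9, *BCAT2*, was at least 2-fold lower than in WT and none higher, where 5.29% of genes were lower and 1.07% higher. Between OX5-4 and *atbbd1*, *BCAT2* was higher in OX5-4 and *DIN10* lower, 1 of 9 each way, where 7.33% of genes were higher and 1.28% lower. *BCAT2* passed the filter of 1 FPKM through OX5-4 and WT after PEG, not through *atbbd1*, so its calls are not independent of the filter.

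The members' median log2 ratio was -0.09 in OX5-4 over WT, beside 0.02 for all genes, and -0.12 in *atbbd1* over WT, beside -0.11. In OX5-4 over *atbbd1* it was -0.19, beside 0.11 for all genes, but 0.27 without *DRM1* and *DRM2*, a choice made after the values were seen. The members therefore did not move as a block between genotypes. Relative to WT, *IVD*, *MCCA* and *bZIP1* exceeded it in OX5-4 and lay below it in *atbbd1*, 3 of 9 members and 32.7% of the 16276 genes with a value in all PEG libraries. The reverse held for *ASN1*, *DIN4*, *DIN10* and *DRM1*, 4 of 9 members and 15.6% of genes. *DRM2* lay below WT in both lines, as did 31.2% of genes, no member lay above WT in both, as 19.6% did, and *BCAT2* was equal in OX5-4 and WT. The shares of all genes depended on the scale: with libraries scaled by the median of ratios, 24.8% of genes had the first pattern and 23.5% the second, with the same 3 and 4 members.

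*DIN10* and *ASN1* had the lowest ratios of OX5-4 over *atbbd1*, and *ASN1* and *DRM2* those of OX5-4 over WT. The OX5-4 level of *DIN10* was 0.739 of that in WT (0.688 to 0.793) and its *atbbd1* level 1.63-fold of WT (1.54 to 1.73), so that OX5-4 stood 2.21-fold below *atbbd1* (2.07 to 2.36). For *ASN1* the OX5-4 level was 0.620 of that in WT (0.478 to 0.803), the *atbbd1* level was 1.17-fold of WT (0.937 to 1.46, which includes 1), and OX5-4 stood 1.88-fold below *atbbd1* (1.47 to 2.41). The order of *DIN10* was thus *atbbd1*, WT, OX5-4 with every step beyond its counting interval, and for *ASN1* the step between *atbbd1* and WT was not.

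The measured relatives of *DIN10* were highest in OX5-4. *SIP2*, an α-galactosidase of the same family, was at 20.9 FPKM in OX5-4, 5.89 FPKM in *atbbd1* and 9.34 FPKM in WT after PEG, and *RS5*, a raffinose synthase, at 16.4 FPKM in OX5-4, 5.04 FPKM in *atbbd1* and 10.7 FPKM in WT after PEG. In WT at 0 h *SIP2* was at 14.2 FPKM and *RS5* at 11.8 FPKM, each between its levels in OX5-4 and in WT after PEG, whereas *DIN10* was lowest at 0 h.

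The OX5-4 level of *DRM1* was 0.844 of that in WT (0.766 to 0.930), and its *atbbd1* level was 1.21-fold of WT (1.11 to 1.32). The OX5-4 level of *DRM2* was 0.629 of that in WT (0.601 to 0.658), and its *atbbd1* level was 0.895 of that in WT (0.859 to 0.933). Both were lowest in OX5-4 among the PEG libraries, with *DRM1* at 0.698 and *DRM2* at 0.703 of the *atbbd1* level, while *DRMH1* in OX5-4 was 1.02-fold of WT (0.978 to 1.06). Even in OX5-4, both stayed far above WT at 0 h, by a ratio of 89.3 (44.8 to 206) for *DRM1* and 878 (317 to 4505) for *DRM2*.

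**Figure D3:**
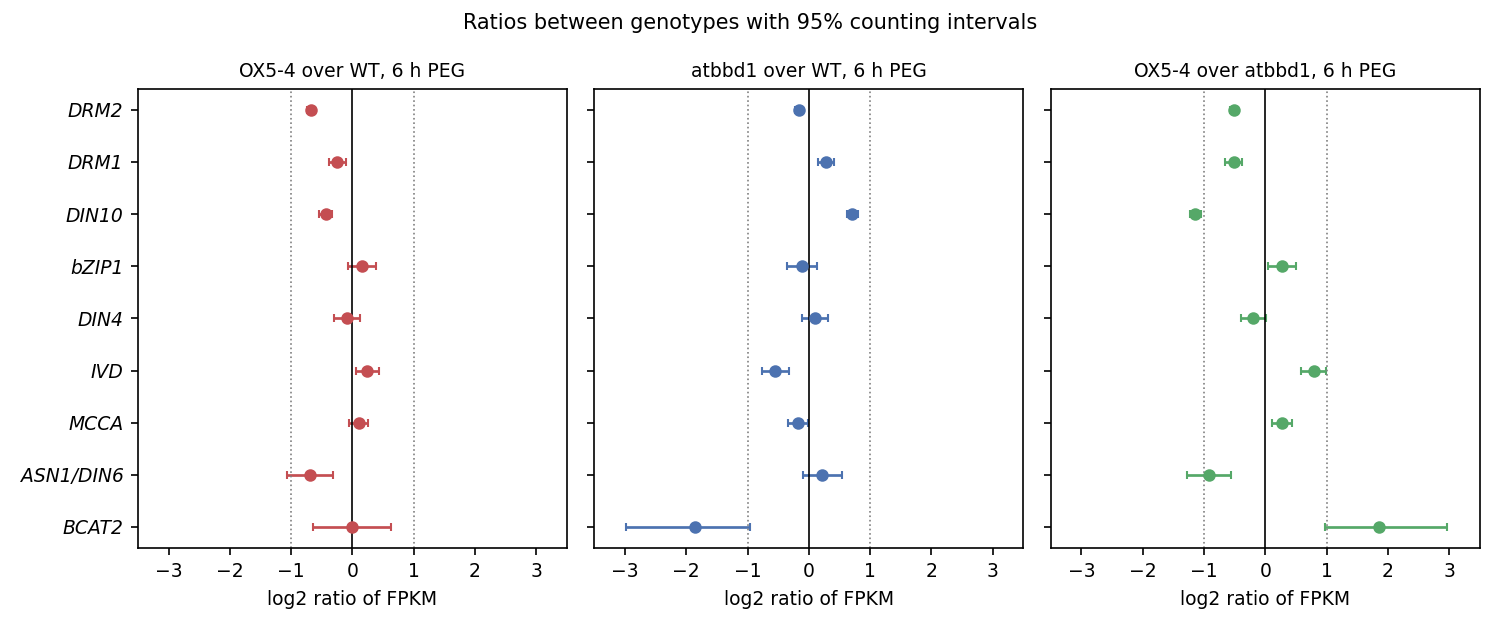
Log2 ratio of FPKM after 6 h of PEG for OX5-4 over WT (left), *atbbd1* over WT (middle) and OX5-4 over *atbbd1* (right), with bars for the 95% counting interval and dotted lines at 2-fold. Past 2-fold lie only *BCAT2*, at -1.86 in *atbbd1* over WT and 1.86 in OX5-4 over *atbbd1*, and *DIN10*, at -1.14 in OX5-4 over *atbbd1*.

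Among the breakdown genes, *BCAT2* and *IVD* were lower in *atbbd1*. *BCAT2* was 3.64-fold lower in *atbbd1* than in WT (1.95 to 7.89), from about 12 reads against 42, and its level in *atbbd1* was 1.27-fold of WT at 0 h (0.466 to 3.24), an interval that includes 1. *IVD* was 1.46-fold lower in *atbbd1* than in WT (1.26 to 1.70) and 1.18-fold higher in OX5-4 (1.04 to 1.35), and its *atbbd1* level was 1.02-fold of WT at 0 h (0.864 to 1.21). For these 2 genes the *atbbd1* library after PEG was thus not distinguishable from WT at 0 h within counting error, whereas *MCCA* in *atbbd1* was 2.50-fold of WT at 0 h (2.14 to 2.94). *MCCA*, *bZIP1* and *DIN4* differed little between genotypes, within 0.888 to 1.12 of their WT level in both lines.

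The widest genotype difference of the pathway fell on a gene outside the 10 members. *BCKDH-E1A1* (AT1G21400), an E1 alpha subunit of the complex that holds DIN4, was at 40.9 FPKM in OX5-4, 6.06 FPKM in *atbbd1*, 22.9 FPKM in WT after PEG and 12.8 FPKM in WT at 0 h. Its OX5-4 level was 1.79-fold of WT (1.64 to 1.96) and its *atbbd1* level 3.78-fold below WT (3.23 to 4.42), a 6.76-fold difference between OX5-4 and *atbbd1* (5.84 to 7.84). The other E1 alpha gene, *BCKDH-E1A2*, was at 2.76 FPKM in OX5-4, 3.18 FPKM in *atbbd1* and 2.08 FPKM in WT after PEG. *BCKDH-E1A1* was the 1 gene of the other 16 past 2-fold in *atbbd1*, and none was in OX5-4. The mitochondrial aminotransferase *BCAT1*, unlike *BCAT2*, was above WT in both lines, at 4.95 FPKM in OX5-4, 4.32 FPKM in *atbbd1* and 2.97 FPKM in WT after PEG.

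**Figure D4:**
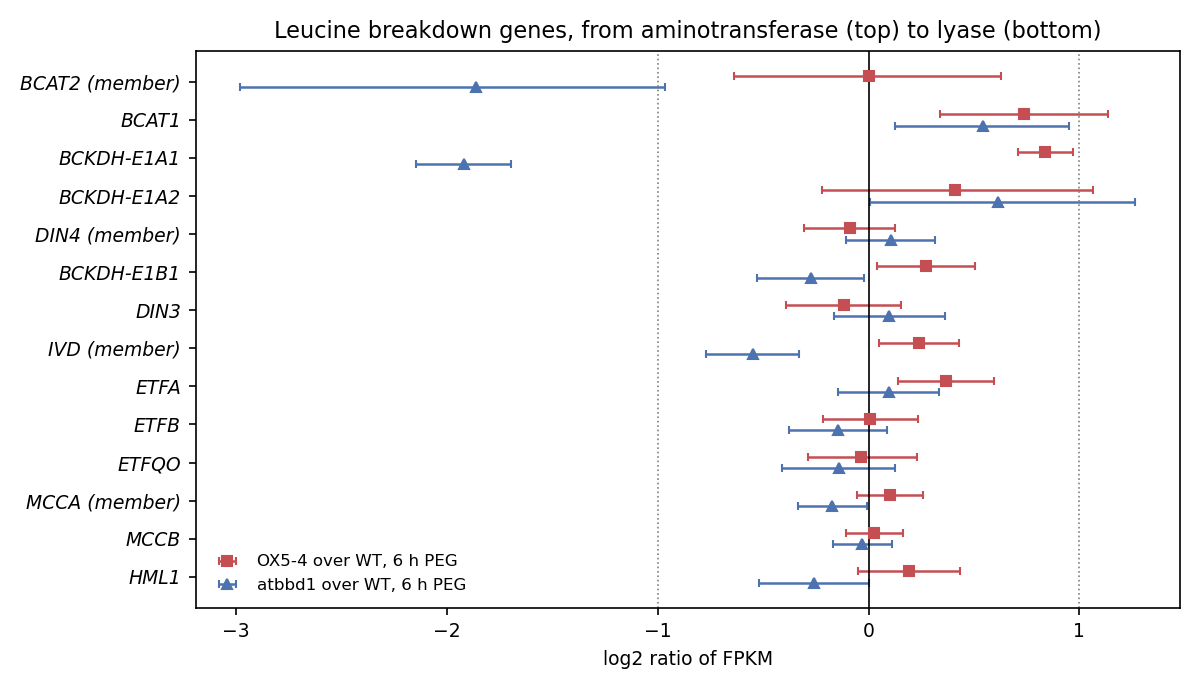
Log2 ratio of FPKM after 6 h of PEG for OX5-4 over WT (squares) and *atbbd1* over WT (triangles) along the leucine pathway, with bars for the 95% counting interval and dotted lines at 2-fold. *BCAT2* at -1.86 and *BCKDH-E1A1* at -1.92 stand out in *atbbd1*, and the ratios of all other genes shown lie within 2-fold in both lines.

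By counting error alone, the interval lay above 1 in OX5-4 over WT for 1 member (*IVD*) and below 1 for 4 (*ASN1*, *DIN10*, *DRM1* and *DRM2*), beside 16.8% and 13.2% of genes. In *atbbd1* over WT it lay above 1 for 2 (*DIN10* and *DRM1*) and below 1 for 4 (*BCAT2*, *IVD*, *MCCA* and *DRM2*), beside 12.4% and 28.6%. In OX5-4 over *atbbd1* it lay above 1 for 4 (*BCAT2*, *IVD*, *MCCA* and *bZIP1*) and below 1 for 4 (*ASN1*, *DIN10*, *DRM1* and *DRM2*), beside 32.3% and 16.3%. The small steps hang on the scale: median-of-ratios scaling moved the median of all genes by 0.10 (log2) in *atbbd1* over WT and by -0.12 in OX5-4 over *atbbd1*. On that scale the *atbbd1* intervals of *MCCA* and *DRM2* included 1 and that of *ASN1* lay above 1 (1.01 to 1.57), and in OX5-4 over *atbbd1* those of *MCCA* and *bZIP1* included 1 and that of *DIN4* lay below 1. Apart from the tie of *BCAT2*, no member's ratio changed its direction, and those of *DIN10*, *DRM1*, *BCAT2* and *IVD* kept their side of 1 in each comparison where they had one.

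The other starvation markers were mostly lower in OX5-4 than in WT, 8 of 10, where 7672 of 16334 genes were lower. Their median log2 ratio was -0.48 (-0.50 under median-of-ratios scaling) beside 0.02 for all genes. In *atbbd1* 7 of 10 were below WT, where 10472 of 16289 genes were below it. Under median-of-ratios scaling 5 of 10 were below WT. Without that scaling the median was -0.18, beside -0.11 for all genes. In each line 1 of 10 was at least 2-fold lower than in WT and none higher. Among all genes 1.31% were lower in OX5-4 and 5.29% in *atbbd1*. In both lines the lower marker was *SEN1/DIN1*, at 29.3 FPKM in OX5-4, 31.4 FPKM in *atbbd1* and 84.0 FPKM in WT after PEG. The second lowest ratio to WT was that of *BGAL4*, a β-galactosidase, in OX5-4 and of *PP2-A13* in *atbbd1*. *BGAL4* was at 1.88 FPKM in OX5-4, 3.75 FPKM in *atbbd1* and 3.37 FPKM in WT after PEG, and *PP2-A13* was at 43.8 FPKM in OX5-4, 35.1 FPKM in *atbbd1* and 68.5 FPKM in WT after PEG. At the other end in *atbbd1* stood *RZPF34*, at 33.9 FPKM in OX5-4, 46.8 FPKM in *atbbd1* and 35.6 FPKM in WT after PEG. In OX5-4 it was *ATL8*, at 1.09 FPKM in OX5-4, 0.83 FPKM in *atbbd1* and 0.84 FPKM in WT after PEG. These *ATL8* levels stood for about 19, 14 and 13 reads in the same order. *ATL8* passed the filter of 1 FPKM through OX5-4 alone, so its place at this end is not independent of the filter. All 6 sugar- or nitrate-induced genes were below WT in *atbbd1*, 3 of them at least 2-fold, beside 5.29% of all genes. In OX5-4 4 were at least 2-fold higher than in *atbbd1*, beside 7.33% of all genes. Both 2-fold counts include *GPT2*, which passed the filter of 1 FPKM through OX5-4 alone. It was at 1.10 FPKM in OX5-4, 0.13 FPKM in *atbbd1* and 0.55 FPKM in WT after PEG, about 34, 4 and 15 reads. The β-amylase *BAM5* had the widest gap, at 6.12 FPKM in OX5-4, 0.62 FPKM in *atbbd1* and 5.56 FPKM in WT after PEG. All 7 SnRK1 subunits lay below WT in *atbbd1*, none by 2-fold and only 4 of 7 on the median-of-ratios scale, with a median log2 ratio of -0.12 beside the -0.11 of all genes.

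Some members share bases with a neighbour. The paper names a stranded library kit, but no source used here says whether strand was considered in counting. *BCAT2* overlaps AT1G10090 on the opposite strand by 161 bases, a gene at 25.7 FPKM in OX5-4, 14.3 FPKM in *atbbd1*, 23.2 FPKM in WT after PEG and 2.73 FPKM in WT at 0 h. Its levels are in the same order as those of *BCAT2*, apart from the tie, and its part in the few *BCAT2* reads was not tested. *DIN4* overlaps *TBP1* by 27 bases and *MCCA* overlaps AT1G03100 by 300 bases, a gene at no more than 0.72 FPKM. *MCCA* also overlaps the long noncoding RNA gene AT1G04157 by 225 bases, for which no FPKM is given. The neighbours that overlap *ASN1* and *DIN10* were listed at 0.

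The profile of the members was compared with all genes at 10 FPKM or more in at least 1 library by the distance over log2(FPKM + 1) differences from WT after PEG. Among 8642 genes, the nearest to the members' median profile was *DET2*, a steroid reductase of brassinosteroid synthesis, at a distance of 0.0413, with 14.2 FPKM in OX5-4, 14.4 FPKM in *atbbd1*, 15.3 FPKM in WT after PEG and 4.92 FPKM in WT at 0 h. It was followed by *SFC* at 0.0596 and by AT1G17160, AT5G40450 and AT5G22580. The nearest to *ASN1* was AT5G18210 at 0.148, with 7.08 FPKM in OX5-4, 10.9 FPKM in *atbbd1*, 10.4 FPKM in WT after PEG and 1.60 FPKM in WT at 0 h, followed by AT1G66940 at 0.172 and AT4G23820 at 0.185. Likeness was measured over 4 libraries.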

How the data were processed

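Leaf mRNA was sequenced in 4 libraries, 1 per condition, grouped by the submitters' labels. The deposited table holds FPKM, which the authors normalized to mapped fragments and transcript length on TAIR10. TopHat2 and Cufflinks are named in the submitters' notes, HISAT2 and RPKM in the paper. A gene was kept if any library reached 1 FPKM, and was called at the study's 2-fold threshold on FPKM with no pseudocount. Read numbers were recovered from FPKM, the shortest transcript of TAIR10.1 (27445 of 27655 IDs matched) and the total of mapped fragments that turned low values (at most 40 reads) into whole reads, with a tolerance of 0.15, which held for 99.0% to 99.3% of them and for 23.2% to 24.4% at other totals. These low values came from genes with 1 transcript shorter than 1200 bases, 1325 to 1446 values per library. No member's value was among them. Exact 95% binomial (Clopper-Pearson) intervals on these reads cover counting error only. At 0, a floor of 3 reads per library was used. Members and lists were chosen with earlier results of these data known. Named genes were all 10 members and the nearest profiles (5 to the median, 3 to *ASN1*). From the other lists the rule took the 2 highest and 2 lowest ratios of each comparison. Not all of these are printed, and which are, with further list members and the genes that overlap members, was chosen after their values were seen. Alternatives were filters of 0 and 5 FPKM, pseudocounts of 1 and 0.1, a 4-fold threshold, median-of-ratios scaling and a common sum. Python 3.11.15, pandas 2.3.3 and scipy 1.17.1 were used.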

Additional observations from a re-analysis of the deposited data

How the results depend on the processing

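With 1 library per condition no result has a replicate check, and depth limits the genes of few reads, *BCAT2* and the 0 h levels of *DRM1* and *DRM2*. No paired analysis was possible because no condition had a replicate. Apart from the tie of *BCAT2* in OX5-4, no member's ratio changed direction under median-of-ratios scaling or the common sum. The 212 single-gene values under the alternatives also include filters and pseudocounts, which cannot change a direction. In WT after PEG over 0 h, the members' median log2 ratio (2.21) was 1.44 with a pseudocount of 1, 1.95 with a pseudocount of 0.1, 2.01 with a filter of 5 FPKM and, chosen after seeing the data, 1.57 without *DRM1* and *DRM2*, and 5 in place of 8 members were higher at a 4-fold threshold. With a pseudocount of 1, 7 were higher, *BCAT2* being lost at 0.98. In *atbbd1* over WT, 0 members were lower with a pseudocount of 1, a filter of 5 FPKM or a 4-fold threshold, and the median (-0.12) was -0.012 under median-of-ratios scaling and -0.0064 with the filter. In OX5-4 over *atbbd1*, 0 members were higher with a pseudocount of 1, the filter or the 4-fold threshold. There, 2 were lower under median-of-ratios scaling and 0 at 4-fold, and the median (-0.19) was -0.31 under that scaling, -0.35 with the filter and 0.27 without *DRM1* and *DRM2*. Counting intervals, genotype patterns and list directions under median-of-ratios scaling were likewise computed after seeing the data. The filter of 5 FPKM removes *BCAT2*. The causes of the other changes were not tested.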
